A study of Mus musculus with 9 samples.

Results

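Photoreceptors pass their light signal on through a ribbon synapse, and 42 genes of that synapse and of vesicle release are described here, in mouse retinal cells sorted by a green fluorescent reporter. The genes form a list of named symbols, drawn up with earlier results of these data known: 2 vesicular glutamate transporters, 5 calcium channel genes, 9 active zone genes, 11 SNARE and complexin genes, 11 other vesicle genes, and 4 genes of the synaptic cleft and terminal scaffold. All 42 were measured, among 18193 genes in all. A total of 110 probe sets was annotated to them alone, and for each gene the brightest of them, by mean over the 9 arrays, was used.

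RNA came from 3 groups of 3 Affymetrix arrays. The rhoGFP-positive and rhoGFP-negative fractions were sorted from rhoEGFP pups at postnatal day 4, and the nestinGFP-positive fraction came from pNestin-GFP pups at postnatal day 0. All pups were on a C57BL/6J-129/Ola background, and every replicate was a pool of retinae from 6 to 8 mice. By its name the rhoEGFP line reports on rhodopsin, the rod pigment, and the pNestin-GFP line on nestin, a filament of progenitor cells; the labels say no more of their promoters. In bulk samples such as these, fewer cells of a type and less RNA per cell cannot be told apart. Age, mouse line and reporter all differ between the nestinGFP-positive group and the rhoGFP groups. Their parts in those comparisons cannot be told apart either.

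In a photoreceptor terminal a plate-like ribbon holds vesicles close to calcium channels of the L type, so that glutamate is released for as long as the cell is depolarised in darkness. Release there uses several proteins that differ from their relatives at conventional synapses, among them the channel CaV1.4, syntaxin 3 and complexins 3 and 4. Amacrine and ganglion cells, which form conventional synapses, share with photoreceptors much of the core machinery, such as SNAP-25, synaptobrevin and synaptotagmin 1. In the mouse the rod terminal is assembled over the first weeks after birth.

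Values are log2 signals after RMA, which corrects background, equalises the arrays and summarises each probe set. The array medians ran from 6.08 to 6.17. Arrays of a group correlated at 0.979 to 0.994, and their number limits the precision. Rod markers (6 measured) were higher in the rhoGFP-positive cells in 6 of 6, with list medians of 12.35 to 12.49 against 9.14 to 10.48 in the rhoGFP-negative and 7.96 to 9.57 in the nestinGFP-positive arrays. Amacrine markers were lower in 7 of 8 against both groups, with medians of 6.72 to 8.18 against 8.89 to 9.91 and 9.57 to 10.02. The other amacrine marker, Slc6a9, was higher against the nestinGFP-positive cells (2.01, limma adjusted p = 0.000805). Progenitor markers were lower in 7 of 8 against both, with medians of 8.12 to 8.66 against 10.02 to 10.91 and 11.07 to 11.37. As the logarithm of the summed signal, the rod list stood at 15.36 to 15.42 in the rhoGFP-positive arrays against 12.84 to 13.70 and 11.54 to 12.96, and the amacrine list at 11.05 to 12.18 against 12.57 to 13.65 and 13.92 to 14.23. Bipolar markers, from cells that use ribbons too, were higher in 1 of 7 (Prkca) against each group. Their list medians were 6.07 to 6.13 against 6.62 to 7.10 and 5.78 to 6.44. The logarithm of their summed signal was 13.45 to 13.54 against 13.47 to 13.86 and 12.39 to 13.35. The brightest of them was Otx2, also a photoreceptor factor, at means of 13.29, 13.54 and 12.68. Of 7 cone markers, from the other photoreceptors with ribbons, 0 were called against the rhoGFP-negative cells by limma, with 0 at an unadjusted p below 0.05, and 3 were higher against the nestinGFP-positive cells (Opn1sw, Pde6h and Gngt2), with a logarithm of the summed signal of 11.15 to 11.93 against 10.79 to 11.52 and 10.41 to 10.81. Müller glia markers were lower in 5 of 7 against both groups. Horizontal markers were lower in 3 and 2 of 6, with medians of 5.44 to 6.06 against 7.06 to 7.23 and 6.49 to 7.23. Ganglion markers were lower in 1 and 3 of 7, and endothelial and mural markers in 2 of 6 against each group. Nrl, the transcription factor that sets rod fate, was at 13.58, 13.67 and 13.68 in the rhoGFP-positive, 12.72, 12.82 and 12.21 in the rhoGFP-negative and 11.68, 11.18 and 10.45 in the nestinGFP-positive arrays. It was the single one of the 6 rod markers called higher in the rhoGFP-negative than in the nestinGFP-positive cells (1.48, limma adjusted p = 0.0314). Gnat1, Cnga1 and Sag, which act in rod phototransduction, were at means of 5.40, 6.15 and 10.44 in the rhoGFP-negative and 5.47, 6.36 and 10.29 in the nestinGFP-positive group. Pde6b was higher in the rhoGFP-negative group, at means of 9.11 against 7.53, and its arrays did not overlap. Its difference of 1.58 was not called (limma adjusted p = 0.0758), nor was that of Pdc, at 0.69 (limma adjusted p = 0.395). Nes was at 8.45, 8.64 and 8.70 in the nestinGFP-positive arrays and overlapped the 8.38, 8.45 and 8.96 of the rhoGFP-negative arrays. Control probe sets for 18S ribosomal RNA were at 12.1 to 13.6 on the 3 arrays numbered 1 and at 9.65 to 10.4 on the other 6. These controls followed the replicate number and not the group. The actin 3' minus 5' difference, a sign of RNA quality, was 0.85, 0.97 and 0.90 in the rhoGFP-positive and 0.64, 0.68 and 0.64 in the rhoGFP-negative arrays, which did not overlap, and 0.40, 0.61 and 0.99 in the nestinGFP-positive arrays. The rod, amacrine, horizontal, progenitor and Müller glia lists moved with the synapse genes. In the comparison at the same age the bipolar list medians and the actin difference did so too. Against the nestinGFP-positive cells the cone and microglia list medians were also higher. The lowest rhoGFP-positive medians were 7.30 and 5.94, and the highest nestinGFP-positive ones 7.11 and 5.63. Of 6 microglia markers, 1 was called higher there (Tyrobp, 1.72, limma adjusted p = 0.0146). Against the rhoGFP-negative cells the medians of both lists overlapped. The part of all these lists and of the actin difference in the synapse results was not tested.

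A gene was called at a limma adjusted p below 0.05 and a difference of at least 1 on the log2 scale, which is 2-fold. Against the rhoGFP-negative cells of the same age, 18 of the 42 synapse genes were higher in rhoGFP-positive cells and 3 were lower, where the shares over all genes were 3.61% and 7.32%. The median difference was 0.65 over the 42 genes and 0.01 over all genes. Against the nestinGFP-positive cells, 18 were higher and 6 lower, beside 5.06% and 10.5% of all genes, with medians of 0.72 and 0.06. Both comparisons use the same rhoGFP-positive arrays, so their results are not independent: 17 genes were higher in both, Sv2a in the first alone and Cplx3 in the second alone. Cacna1d, Syt4 and Syt11 were lower in both, and Rims1, Erc1 and Stx1a in the second alone. From the nestinGFP-positive to the rhoGFP-negative cells 2 were higher and 1 lower, where 0.385% and 0.605% of all genes were. Arrays of the groups did not overlap for 25 genes with higher and 6 with lower signal in the first comparison (17.9% and 20.3% of all genes). In the second these were 26 and 9 (24.4% and 23.4%), and in the last 11 and 2 (11.8% and 8.79%). On the 6 arrays numbered 2 and 3 alone, 17 genes were higher and 4 lower against the rhoGFP-negative cells, and 18 and 6 against the nestinGFP-positive cells. The shares over all genes were not computed for those 6 arrays. Of all 110 probe sets, 29 were higher and 8 lower in the first comparison and 33 and 13 in the second, and 0 genes had probe sets called in opposite directions. These calls were adjusted over all 34945 probe sets with 1 symbol. The shares called among those were not computed, so the probe set counts have no background beside them. The remaining 17 genes were called nowhere at the probe set used, with differences of -0.60 to 0.84 against the rhoGFP-negative and -0.74 to 0.94 against the nestinGFP-positive cells.

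**Figure D1:**
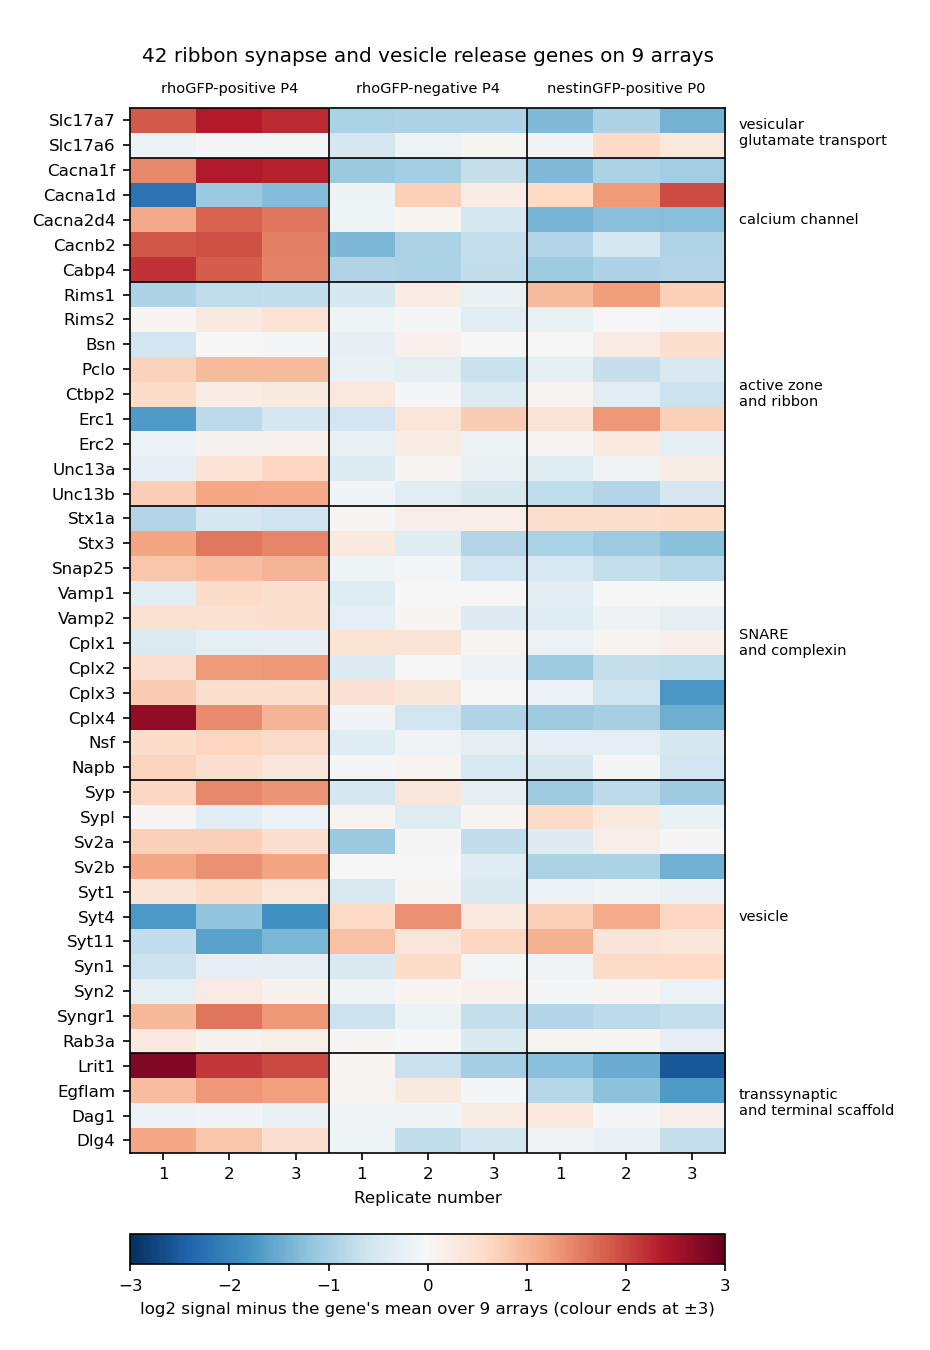
Log2 signal of each of the 42 genes (rows, by subgroup) on each of the 9 arrays (columns, by group and replicate number), as the deviation from the gene's mean over the arrays. Cacna1f, Cacna2d4, Cacnb2, Cabp4 and Slc17a7 are red in the 3 rhoGFP-positive columns, while Cacna1d, Rims1, Erc1, Stx1a, Syt4 and Syt11 are blue there.

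**Figure D2:**
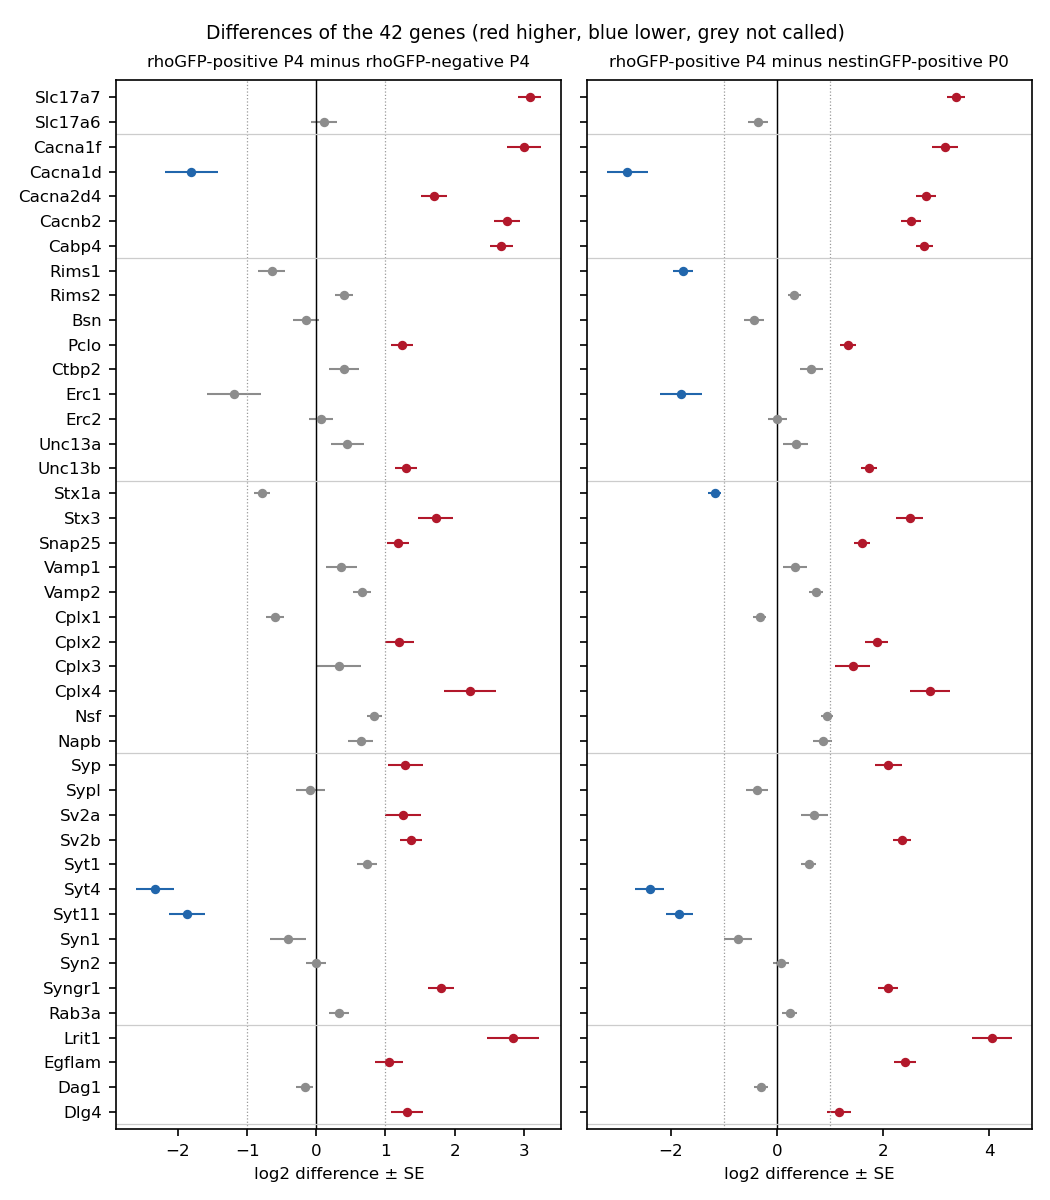
Log2 difference of each gene with its limma standard error, rhoGFP-positive minus rhoGFP-negative on the left and minus nestinGFP-positive on the right, with dotted lines at -1 and 1. Points in red were called higher (18 in each panel), points in blue lower (3 and 6), and points in grey were not called.

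The promoters of the 3 synapse genes with the largest rise against rhoGFP-negative cells that had an entry in the RefSeq table (GRCm38.p6) are given first. Searches covered 250 bases before to 50 after each start, on both strands, for TAATCC, the core bound by the photoreceptor factors Crx and Otx2, and for TGCTGA, the core of the element bound by the rod factor Nrl. The 250 bases before the start are printed 5' to 3' in the direction of the gene, with any match to either motif in capitals.
Lrit1 promoter, chr14:37054580-37054829, plus strand: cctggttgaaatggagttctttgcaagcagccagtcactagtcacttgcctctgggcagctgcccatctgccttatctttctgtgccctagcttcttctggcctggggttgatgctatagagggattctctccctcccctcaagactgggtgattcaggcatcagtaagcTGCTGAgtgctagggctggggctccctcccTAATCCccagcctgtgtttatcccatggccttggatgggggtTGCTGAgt
Slc17a7 promoter, chr7:45163671-45163920, plus strand: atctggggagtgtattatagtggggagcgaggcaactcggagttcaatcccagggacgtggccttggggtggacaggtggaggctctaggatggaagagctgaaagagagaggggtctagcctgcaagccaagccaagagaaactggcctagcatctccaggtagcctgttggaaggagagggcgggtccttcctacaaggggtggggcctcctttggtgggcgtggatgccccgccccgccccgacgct
Cacna1f promoter, chrX:7606853-7607102, plus strand: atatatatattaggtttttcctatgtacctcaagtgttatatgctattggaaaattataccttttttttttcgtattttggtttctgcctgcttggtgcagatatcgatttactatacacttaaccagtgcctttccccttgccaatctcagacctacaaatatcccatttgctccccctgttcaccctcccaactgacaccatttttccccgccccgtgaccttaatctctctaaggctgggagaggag
Lrit1 held 1 TAATCC, beginning at base -50 from the start, and 2 copies of TGCTGA, beginning at -80 and -8. The windows of Slc17a7 and Cacna1f held neither. Entries existed for 35 of the 42 genes, with 50 starts in all. TAATCC occurred in 5 of the 14 higher genes with an entry (35.7%), in 1 of the 19 without a call (5.26%), in 0 of the 2 lower ones, and in 8.14% of the 27025 genes in the table. Per start these shares were 28.6% for the higher genes and 7.06% for all 32851 starts. TGCTGA occurred in 2 of the 14 higher genes (14.3%), in 5 of the 19 without a call (26.3%) and in 21.7% of all genes. Matches are a description of the letters in these windows, not of binding.

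Besides Lrit1, higher genes with TAATCC before the start were Dlg4, Sv2b, at 2 alternative starts, and Syp. Stx3 held a copy beginning 31 bases into its transcript. The stretches around the upstream copies, chosen after the values were seen, are given in the direction of the gene with the core, or its reverse complement GGATTA, in capitals.
Dlg4 stretch, chr11:70017169-70017202, plus strand: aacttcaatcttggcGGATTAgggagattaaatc
Sv2b stretch, chr7:75302680-75302715, minus strand: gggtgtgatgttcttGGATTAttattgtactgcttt
Sv2b stretch, chr7:75309392-75309427, minus strand: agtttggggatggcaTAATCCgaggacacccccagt
Syp stretch, chrX:7638330-7638354, plus strand: atagGGATTAaatgagagaacacac

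Slc17a7 encodes VGLUT1, which fills photoreceptor and bipolar vesicles with glutamate. Its signal was 8.58, 9.13 and 8.99 on the rhoGFP-positive arrays, 5.80, 5.82 and 5.81 on the rhoGFP-negative arrays, and 5.42, 5.81 and 5.33 on the nestinGFP-positive arrays. All 3 rhoGFP-positive arrays stood above the other 6, whose values overlapped between the groups. The difference was 3.09 ± 0.17 (SE), or 8.49-fold, against the rhoGFP-negative cells (limma adjusted p = 3.28e-06). Against the nestinGFP-positive cells it was 3.38 ± 0.17, or 10.4-fold (limma adjusted p = 1.23e-06). Slc17a6 encodes VGLUT2, the transporter of ganglion cells. Its probe set was dim, at 3.99 to 5.07 over the 9 arrays, and its groups overlapped (0.11 ± 0.19, limma adjusted p = 0.753, and -0.36 ± 0.19, limma adjusted p = 0.163).

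The calcium channel of the rod terminal consists of the pore subunit CaV1.4, encoded by Cacna1f, with the accessory subunits encoded by Cacnb2 and Cacna2d4, and it is tuned by the calcium-binding protein encoded by Cabp4. These 4 genes rose in both comparisons of the rhoGFP-positive cells, and with Cacna1d included the subgroup median was 2.68 and 2.78. They are known for inherited disorders of photoreceptor transmission or for the loss of it in mice. Cacna1f stood at 9.79, 10.74 and 10.69 in the rhoGFP-positive, at 7.23, 7.34 and 7.64 in the rhoGFP-negative and at 7.02, 7.40 and 7.32 in the nestinGFP-positive arrays. Its difference was 3.00 ± 0.24 against the first and 3.16 ± 0.24 against the second of these groups (limma adjusted p = 2.18e-05 and 9.75e-06), an 8.02-fold and 8.95-fold difference. Replicate 1 was the lowest rhoGFP-positive array and still lay above all 6 others. Cacna1f has a single probe set.

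Cacnb2 was at 8.65, 8.68 and 8.28 in the rhoGFP-positive, 5.44, 5.82 and 6.08 in the rhoGFP-negative and 5.90, 6.25 and 5.87 in the nestinGFP-positive arrays. The rhoGFP-positive arrays again stood apart, by 2.76 ± 0.19 and 2.53 ± 0.19 (limma adjusted p = 9.31e-06 and 8.08e-06). Its other probe set, dimmer over the arrays, gave 2.58 and 2.56. Cabp4 was at 6.89, 6.54 and 6.21 against 3.83, 3.78 and 4.00 and against 3.66, 3.79 and 3.86. The differences were 2.68 ± 0.16 and 2.78 ± 0.16 (limma adjusted p = 5.38e-06 and 2.35e-06), and 1.79 and 1.81 at its other probe set. Its values outside the rhoGFP-positive group are low signals, and no detection calls were used here, so no fold is given for Cabp4.

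Cacna2d4, the extracellular subunit, followed another pattern. It was at 10.07, 10.72 and 10.55 in the rhoGFP-positive, 8.82, 9.01 and 8.42 in the rhoGFP-negative and 7.55, 7.70 and 7.67 in the nestinGFP-positive arrays, so that no group overlapped another. The rise was 1.70 ± 0.19 against the rhoGFP-negative and 2.81 ± 0.19 against the nestinGFP-positive cells (limma adjusted p = 0.000151 and 5.10e-06). It was also higher in rhoGFP-negative than in nestinGFP-positive cells, by 1.11 ± 0.19 (limma adjusted p = 0.0248). That last call was lost when either array 1 or 2 of the rhoGFP-negative or 2 or 3 of the nestinGFP-positive group was left out (limma adjusted p = 0.0913, 0.0870, 0.0963 and 0.0743). Another probe set of the gene gave 1.84 and 3.13, both called, and a further one 0.23 against the rhoGFP-negative cells, without a call, and 2.00 against the nestinGFP-positive cells.

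Cacna1d encodes CaV1.3, the related L-type pore found in other retinal neurons and in hair cells. Its signal ran the opposite way, at 4.77, 5.89 and 5.69 in the rhoGFP-positive, 6.84, 7.70 and 7.22 in the rhoGFP-negative and 7.58, 8.28 and 8.95 in the nestinGFP-positive arrays. It fell by 1.80 ± 0.38 and fell by 2.82 ± 0.38 (limma adjusted p = 0.00687 and 0.000308). This rests on 1 of its 2 probe sets, of the _s_at kind that can match several transcripts. The other, at a mean of 4.79, gave 0.018 and -0.19 with no call. From the nestinGFP-positive to the rhoGFP-negative cells Cacna1d was at -1.02 (limma adjusted p = 0.200, and 0.0122 with the replicate number as a block).

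**Figure D3:**
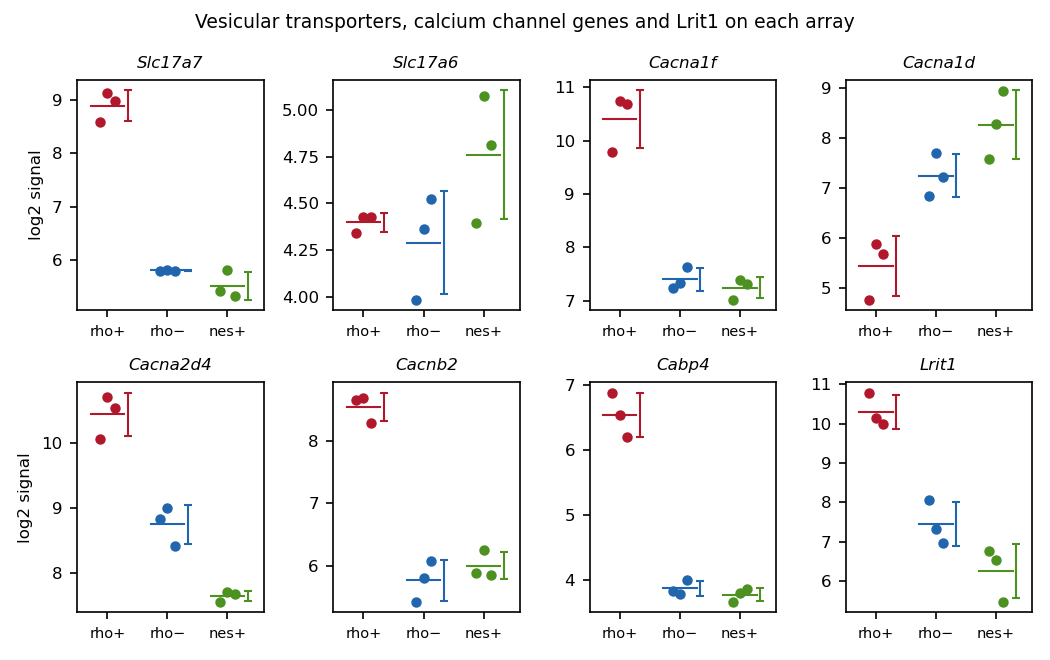
Log2 signal of 8 genes on each array, by group (rho+ for rhoGFP-positive, rho− for rhoGFP-negative, nes+ for nestinGFP-positive), with the group mean as a line, the SD (n = 3) as a bar and an axis of its own for each gene. Cacna1f, Cacnb2, Cabp4 and Slc17a7 are high in the rhoGFP-positive arrays alone, Cacna2d4 and Lrit1 step down from group to group, and Cacna1d steps up.

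Active zone genes were less uniform. Of 9 measured, Pclo and Unc13b rose against the rhoGFP-negative cells, and against the nestinGFP-positive cells these 2 rose while Rims1 and Erc1 fell. The subgroup median was 0.39 and 0.33. Ctbp2 encodes RIBEYE, the building block of the ribbon, and also the corepressor CtBP2 from another start of the same gene. It was at 12.14, 11.80 and 11.86 in the rhoGFP-positive, 11.90, 11.54 and 11.18 in the rhoGFP-negative and 11.67, 11.24 and 10.95 in the nestinGFP-positive arrays. The rhoGFP-positive arrays overlapped the rhoGFP-negative arrays and exceeded the nestinGFP-positive ones, with differences of 0.39 ± 0.22 (limma adjusted p = 0.254) and 0.65 ± 0.22 (limma adjusted p = 0.0433), below the 2-fold minimum. Its second probe set gave 0.38 and 0.52. Which of the gene's 2 products a probe set reads is not given in the annotation used here.

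Bassoon, encoded by Bsn, anchors the ribbon to the presynaptic membrane, and its relative piccolo is encoded by Pclo. Bsn was at 8.06, 8.63 and 8.59 in the rhoGFP-positive, 8.37, 8.74 and 8.61 in the rhoGFP-negative and 8.60, 8.86 and 9.12 in the nestinGFP-positive arrays, so all 3 groups overlapped (-0.15 ± 0.19, limma adjusted p = 0.663, and -0.44 ± 0.19, limma adjusted p = 0.101). Pclo was at 10.19, 10.44 and 10.46 against 9.31, 9.23 and 8.85 and against 9.23, 8.81 and 9.04. Its rise was 1.24 ± 0.16 and 1.34 ± 0.16 (limma adjusted p = 0.000335 and 0.000125). Both other probe sets of Pclo were dimmer and gave -0.26 and 0.00 against the rhoGFP-negative cells. With the mean of the 3 the difference was 0.33 and 0.26, without a call.

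Munc13 proteins prime vesicles for fusion, and Unc13b encodes Munc13-2, the form reported at photoreceptor ribbons. Unc13b was at 11.06, 11.46 and 11.44 in the rhoGFP-positive, 10.24, 10.00 and 9.84 in the rhoGFP-negative and 9.54, 9.42 and 9.80 in the nestinGFP-positive arrays. It rose by 1.30 ± 0.16 and 1.74 ± 0.16, or 2.46-fold and 3.33-fold (limma adjusted p = 0.000260 and 2.57e-05). With the mean of its 2 probe sets the differences were 0.70, not called, and 1.09. Unc13a, which encodes Munc13-1 of conventional synapses, overlapped between the groups, at 7.68 to 8.59, 7.55 to 7.97 and 7.57 to 8.15 (0.45 ± 0.24, limma adjusted p = 0.227, and 0.35 ± 0.24, limma adjusted p = 0.282).

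RIM proteins tether vesicles and channels at the active zone. Rims1 was at 6.31, 6.49 and 6.50 in the rhoGFP-positive, 6.77, 7.46 and 7.01 in the rhoGFP-negative and 8.18, 8.50 and 7.95 in the nestinGFP-positive arrays, with no overlap between any groups. It fell by 1.78 ± 0.19 against the nestinGFP-positive cells (limma adjusted p = 7.04e-05). Against the rhoGFP-negative cells it was at -0.65 ± 0.19 (limma adjusted p = 0.0335), below the 2-fold minimum. From the nestinGFP-positive to the rhoGFP-negative cells it fell by 1.13 (limma adjusted p = 0.0245), a call lost without rhoGFP-positive array 2, rhoGFP-negative array 1 or nestinGFP-positive array 2 (limma adjusted p = 0.0526, 0.0831 and 0.0996). Rims2, the form known at rod ribbons, was at 8.97 to 9.32 against 8.60 to 8.89 and 8.71 to 8.91, with differences of 0.40 ± 0.13 and 0.33 ± 0.13 that were not called.

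ELKS proteins bind RIMs at the active zone. Erc1, the broadly expressed member, was at 5.24, 6.15 and 6.42 in the rhoGFP-positive, 6.38, 7.30 and 7.71 in the rhoGFP-negative and 7.36, 8.24 and 7.65 in the nestinGFP-positive arrays. It fell by 1.81 ± 0.39 against the nestinGFP-positive cells (limma adjusted p = 0.00495). Against the rhoGFP-negative cells its arrays overlapped, at -1.19 ± 0.39 (limma adjusted p = 0.0528, and 0.00109 with the replicate number as a block, which calls it). Within each number the rhoGFP-positive array was lower by about the same amount, at -1.13, -1.14 and -1.29. It was also called without rhoGFP-positive array 3 or rhoGFP-negative array 1 (limma adjusted p = 0.0451 and 0.0124). With the mean of its 4 probe sets the difference from the nestinGFP-positive cells was -0.87, below the minimum. Erc2, the neuronal member, differed by 0.07 ± 0.17 and 0.01 ± 0.17, and all its groups overlapped.

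Of the 11 SNARE and complexin genes, 4 rose against the rhoGFP-negative cells (Stx3, Snap25, Cplx2 and Cplx4), and against the nestinGFP-positive cells 5 rose, with Cplx3 added, and Stx1a fell. The subgroup median was 0.66 and 0.94. Among SNARE proteins, syntaxin 3 takes the place of syntaxin 1 at ribbon synapses. Stx3 was at 11.96, 12.36 and 12.23 in the rhoGFP-positive, 11.08, 10.41 and 9.89 in the rhoGFP-negative and 9.83, 9.69 and 9.53 in the nestinGFP-positive arrays. No group overlapped another, and the rhoGFP-negative arrays were the most spread, with replicate 1 the highest of them. Rod markers were likewise highest on that array, with list medians of 10.48 against 9.70 and 9.14, a link that was not tested. Stx3 rose by 1.72 ± 0.26, or 3.30-fold, and by 2.50 ± 0.26, or 5.65-fold (limma adjusted p = 0.000821 and 5.21e-05). All 4 of its probe sets were called in both comparisons, with rises of 1.34 to 2.39 and 2.02 to 2.86. Between the other groups its 0.77 ± 0.26 was not called, except without rhoGFP-negative array 3 (1.06, limma adjusted p = 0.0228).

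Stx1a, which encodes syntaxin 1A of conventional synapses, was at 7.75, 8.13 and 8.03 in the rhoGFP-positive, 8.65, 8.80 and 8.82 in the rhoGFP-negative and 9.14, 9.11 and 9.18 in the nestinGFP-positive arrays. These ranges did not overlap and ran opposite to those of Stx3. Stx1a fell by 1.17 ± 0.12 against the nestinGFP-positive cells (limma adjusted p = 4.64e-05). The difference of -0.78 ± 0.12 from the rhoGFP-negative cells (limma adjusted p = 0.000905) was below the minimum. At its single probe set outside the _x_at and _s_at kinds the difference was -0.94 and not called.

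Snap25, the membrane SNARE shared by most neurons, was at 12.60, 12.69 and 12.78 in the rhoGFP-positive, 11.64, 11.70 and 11.19 in the rhoGFP-negative and 11.30, 11.05 and 10.92 in the nestinGFP-positive arrays. The rhoGFP-positive arrays stood clear of the other 6, by 1.18 ± 0.15 and 1.60 ± 0.15 (limma adjusted p = 0.000395 and 3.67e-05). Including its dim second probe set in a mean left the first difference at 0.98, without a call (limma adjusted p = 0.0730). Vamp2, Nsf and Napb, which encode synaptobrevin 2 and the proteins that take used SNARE complexes apart, did not reach the minimum. Their differences were 0.66, 0.84 and 0.64 against the rhoGFP-negative and 0.73, 0.94 and 0.86 against the nestinGFP-positive cells, with limma adjusted p from 0.000109 to 0.0279, and their rhoGFP-positive arrays exceeded all others. Of the 3 other probe sets of Nsf, 2 were called higher in both comparisons, at 1.02 and 1.33 and at 1.49 and 1.38. Vamp1 overlapped between the groups (0.36 and 0.34).

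Complexins clamp and promote the fusion of SNARE-bound vesicles. Cplx3 and Cplx4 encode the forms of ribbon synapses, which carry a membrane anchor, and Cplx1 and Cplx2 those of conventional synapses. Cplx4 was at 9.59, 8.35 and 7.93 in the rhoGFP-positive, 6.83, 6.35 and 6.03 in the rhoGFP-negative and 5.83, 5.93 and 5.46 in the nestinGFP-positive arrays. It was the most variable of the 4 within the rhoGFP-positive group (SD 0.86, n = 3), and still its groups did not overlap. The rise was 2.22 ± 0.38 and 2.88 ± 0.38, or 4.65-fold and 7.36-fold (limma adjusted p = 0.00191 and 0.000238).

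Cplx3 was at 11.61, 11.34 and 11.35 in the rhoGFP-positive and at 11.29, 11.18 and 10.86 in the rhoGFP-negative arrays, which did not overlap, a difference of 0.32 ± 0.33 that was not called (limma adjusted p = 0.573). In the nestinGFP-positive arrays it was at 10.66, 10.24 and 9.11. The rhoGFP-positive cells were higher by 1.43 ± 0.33 (limma adjusted p = 0.00682), a call that fell below the 2-fold minimum without nestinGFP-positive array 3 (0.98). The rhoGFP-negative cells exceeded the nestinGFP-positive by 1.11 ± 0.33 (limma adjusted p = 0.112, and 0.0137 with the replicate number as a block, which calls it). Without nestinGFP-positive array 1 it was called too (1.44, limma adjusted p = 0.0399). Without nestinGFP-positive array 3 this step of Cplx3 was 0.66, and that of Cplx4 between the same groups was 0.66 over all arrays. Against the rhoGFP-negative cells the difference was 0.32 for Cplx3 and 2.22 for Cplx4. Whether the 2 genes differ was not tested.

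Cplx2 rose in both comparisons, from 10.78, 11.19 and 11.02 in the rhoGFP-negative and 10.08, 10.47 and 10.42 in the nestinGFP-positive arrays to 11.68, 12.45 and 12.46. The differences were 1.20 ± 0.22 and 1.88 ± 0.22 (limma adjusted p = 0.00265 and 0.000107). Its other 2 probe sets gave 1.05 and 1.40 against the rhoGFP-negative cells, in each case without a call. Cplx1 was at 9.31, 9.43 and 9.46 against 10.11, 10.10 and 9.79, below every rhoGFP-negative array, at -0.60 ± 0.13 (limma adjusted p = 0.00722), which is under the minimum. Against the nestinGFP-positive cells it was at -0.33 ± 0.13 (limma adjusted p = 0.0759).

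**Figure D4:**
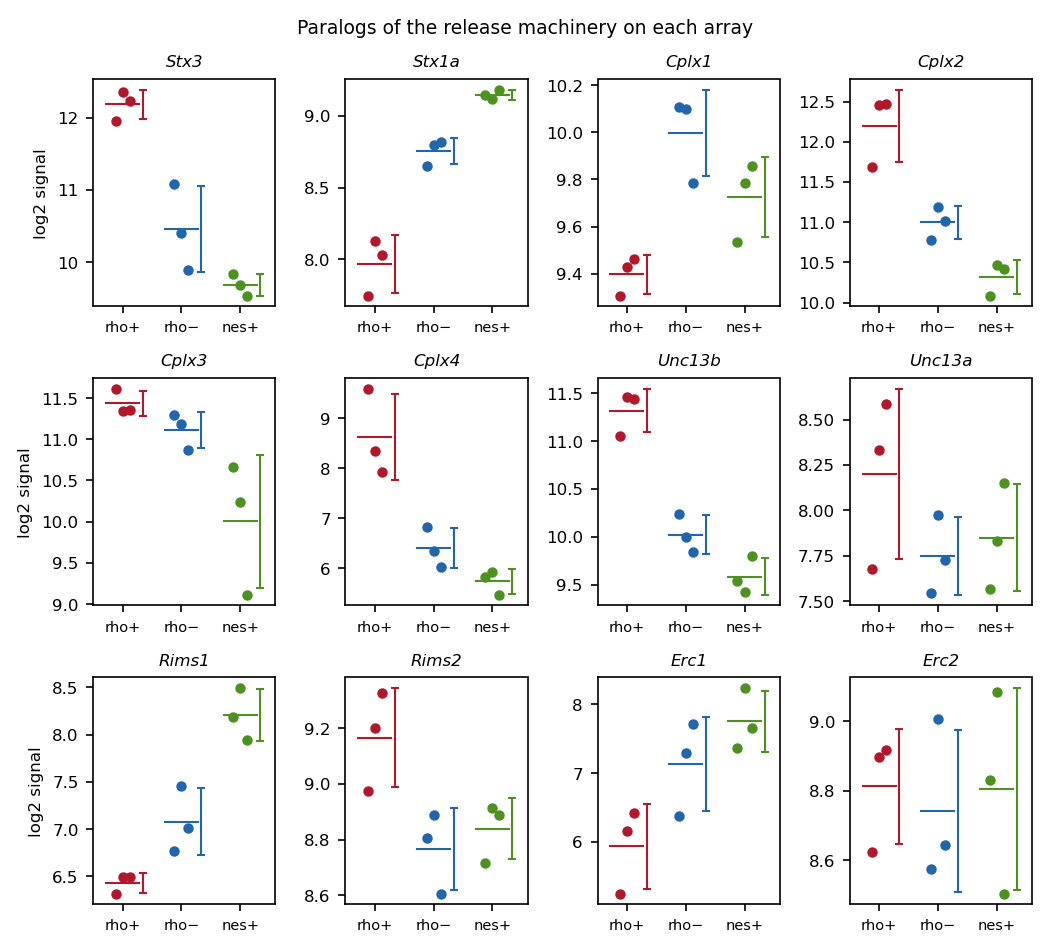
Log2 signal of 12 genes from 5 families of release proteins on each array, by group, with the group mean as a line and the SD (n = 3) as a bar; every panel has an axis of its own. Stx3, Cplx2, Cplx4 and Unc13b are highest in the rhoGFP-positive arrays, Stx1a, Rims1 and Erc1 have their lowest means there, and the groups overlap for Unc13a and Erc2.

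Of 11 other vesicle genes measured, Syp, Sv2a, Sv2b and Syngr1 rose against the rhoGFP-negative cells and Syt4 and Syt11 fell. Against the nestinGFP-positive cells Syp, Sv2b and Syngr1 rose and the same 2 synaptotagmins fell. The subgroup median was 0.33 and 0.24. Syp encodes synaptophysin, the abundant vesicle protein. It was at 11.60, 12.41 and 12.29 in the rhoGFP-positive, 10.44, 11.30 and 10.70 in the rhoGFP-negative and 9.91, 10.20 and 9.90 in the nestinGFP-positive arrays. It rose by 1.29 ± 0.25 and 2.10 ± 0.25 (limma adjusted p = 0.00456 and 0.000145), and the lowest rhoGFP-positive array was just above the highest rhoGFP-negative array. With the mean of its 2 probe sets the differences were 0.69, without a call, and 1.21.

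Syngr1 encodes synaptogyrin 1, a relative of synaptophysin. At 10.48, 11.11 and 10.80 in the rhoGFP-positive, 8.85, 9.36 and 8.79 in the rhoGFP-negative and 8.63, 8.72 and 8.78 in the nestinGFP-positive arrays, it was clear of the other groups. The rise was 1.80 ± 0.19 and 2.08 ± 0.19, or 3.48-fold and 4.24-fold (limma adjusted p = 9.85e-05 and 2.40e-05). With the mean of its 3 probe sets it was 1.12 and 1.32, still called. Sypl, a synaptophysin-like gene that many tissues express, overlapped in all groups, at -0.09 ± 0.21 and -0.38 ± 0.21.

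SV2 proteins are vesicle glycoproteins, and SV2B is the form known in rod terminals. Sv2b was at 12.09, 12.31 and 12.13 in the rhoGFP-positive, 10.94, 10.92 and 10.57 in the rhoGFP-negative and 9.98, 10.00 and 9.48 in the nestinGFP-positive arrays. It rose by 1.37 ± 0.16 and 2.36 ± 0.16 (limma adjusted p = 0.000230 and 6.04e-06). The other Sv2b probe set gave 0.79, under the minimum and not called, and 1.55, called. Between the other groups the step of 0.99 ± 0.16 (limma adjusted p = 0.0241) lay just under the 2-fold minimum. It passed without rhoGFP-negative array 3 (1.11) or nestinGFP-positive array 1 (1.07). Sv2a was at 10.22, 10.23 and 10.05 against 8.40, 9.56 and 8.78 in the rhoGFP-negative arrays, a rise of 1.25 ± 0.26 (limma adjusted p = 0.00607). The rhoGFP-negative arrays were wide apart, and without replicate 1 of them the difference was 0.997 and missed the minimum. Against the nestinGFP-positive arrays, at 9.14, 9.69 and 9.56, it was 0.71 ± 0.26 (limma adjusted p = 0.0610).

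Synaptotagmins include the fast calcium sensor of release, encoded by Syt1, and forms that bind little or no calcium, such as those encoded by Syt4 and Syt11. Syt4 was at 6.12, 6.64 and 6.01 in the rhoGFP-positive, 8.44, 9.19 and 8.12 in the rhoGFP-negative and 8.54, 8.95 and 8.47 in the nestinGFP-positive arrays. The rhoGFP-positive arrays were far below the rest, which overlapped. The gene fell by 2.33 ± 0.27 and fell by 2.40 ± 0.27 (limma adjusted p = 0.000200 and 9.84e-05), and its second probe set gave -1.81 and -2.40.

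Syt11 was at 9.60, 8.72 and 8.97 in the rhoGFP-positive, 11.21, 10.70 and 10.99 in the rhoGFP-negative and 11.39, 10.73 and 10.71 in the nestinGFP-positive arrays. It fell by 1.87 ± 0.26 and fell by 1.84 ± 0.26 (limma adjusted p = 0.000515 and 0.000349). All 5 of its probe sets were called lower in both comparisons. Syt1 was at 12.03, 12.20 and 12.01 in the rhoGFP-positive, 11.17, 11.67 and 11.21 in the rhoGFP-negative and 11.46, 11.55 and 11.45 in the nestinGFP-positive arrays. It stood above both groups by 0.73 ± 0.14 and 0.60 ± 0.14 (limma adjusted p = 0.00363 and 0.00769), below the minimum. With the mean of its 4 probe sets it was called, at 1.05 and 1.02.

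Synapsins, which tie vesicles together at conventional synapses and are known to be lacking from ribbon terminals, had no call. Syn1 was at 7.45 to 7.85 in the rhoGFP-positive, 7.66 to 8.63 in the rhoGFP-negative and 7.99 to 8.68 in the nestinGFP-positive arrays, with differences of -0.40 ± 0.26 (limma adjusted p = 0.338) and -0.74 ± 0.26 (limma adjusted p = 0.0511). Syn2 was dim, at 4.61 to 5.14 over the 9 arrays, and none of its 6 probe sets was called. Rab3a, which encodes the vesicle GTPase that binds RIMs, differed by 0.33 ± 0.15 and 0.24 ± 0.15.

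**Figure D5:**
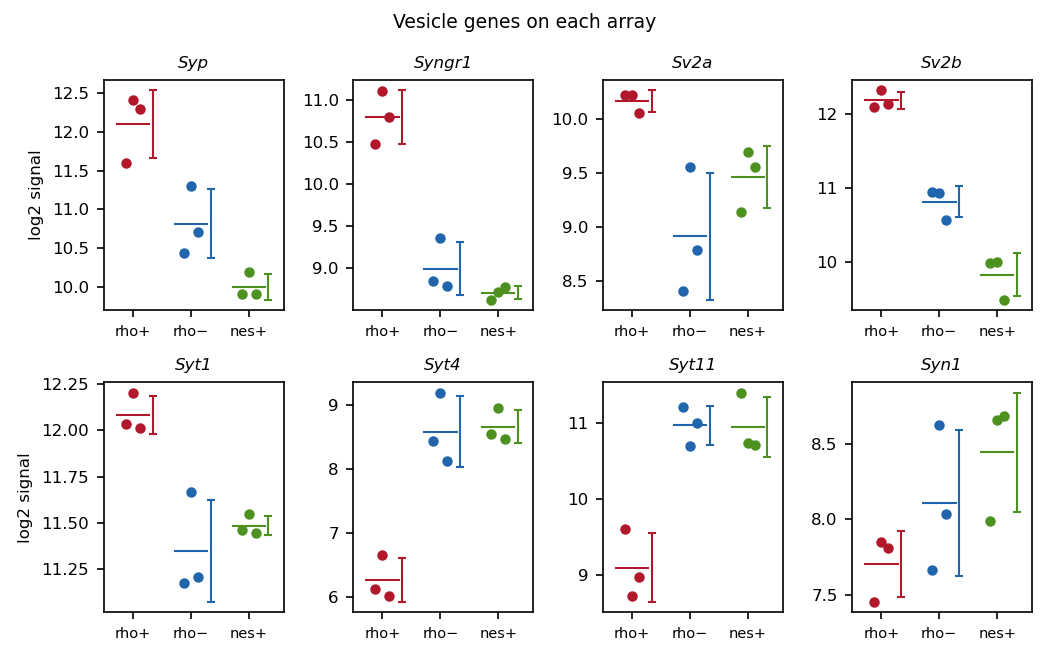
Log2 signal of 8 vesicle genes on each array, by group, with the group mean as a line, the SD (n = 3) as a bar and an axis of its own for each gene. Syp, Syngr1, Sv2a and Sv2b are highest in the rhoGFP-positive arrays, whereas Syt4 and Syt11 are lowest there, with all 3 arrays more than 1 log2 unit below every other array.

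The last subgroup covers the synaptic cleft and the terminal scaffold. In it 3 of 4 genes, Lrit1, Egflam and Dlg4, rose in both comparisons, with a subgroup median of 1.18 and 1.79. Lrit1, which encodes a leucine-rich repeat protein of photoreceptor terminals, gave the largest difference of the 42 genes from the nestinGFP-positive cells. It was at 10.78, 10.13 and 9.99 in the rhoGFP-positive, 8.07, 7.33 and 6.98 in the rhoGFP-negative and 6.76, 6.52 and 5.47 in the nestinGFP-positive arrays. No groups overlapped, and replicate 1 was the highest of each. Lrit1 rose by 2.84 ± 0.38 (7.17-fold) and 4.05 ± 0.38 (16.6-fold), with limma adjusted p of 0.000412 and 2.86e-05. The step of 1.21 ± 0.38 from the nestinGFP-positive to the rhoGFP-negative cells was not called (limma adjusted p = 0.127) unless the replicate number was a block (limma adjusted p = 0.00226).

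Egflam encodes pikachurin, the cleft protein that binds dystroglycan, itself encoded by Dag1. Egflam was at 12.03, 12.39 and 12.32 in the rhoGFP-positive, 11.17, 11.35 and 11.06 in the rhoGFP-negative and 10.24, 9.87 and 9.39 in the nestinGFP-positive arrays. All steps were called, at 1.05 ± 0.20 and 2.42 ± 0.20 for the rhoGFP-positive cells (limma adjusted p = 0.00373 and 1.52e-05) and at 1.36 ± 0.20 between the other groups (limma adjusted p = 0.0184). The first lay at 0.98 without rhoGFP-positive array 2 or rhoGFP-negative array 3, under the minimum. The last was lost without rhoGFP-negative array 1 or 2 or nestinGFP-positive array 2 (limma adjusted p = 0.0635, 0.0665 and 0.0723). Dag1 was at 10.27 to 10.39, 10.39 to 10.70 and 10.44 to 10.79 in the 3 groups, and its differences of -0.17 ± 0.13 and -0.30 ± 0.13 were not called.

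Dlg4 encodes PSD-95, a postsynaptic scaffold in brain that lines the photoreceptor terminal in retina. It was at 10.19, 9.85 and 9.51 in the rhoGFP-positive, 8.89, 8.29 and 8.44 in the rhoGFP-negative and 8.92, 8.83 and 8.32 in the nestinGFP-positive arrays. The rhoGFP-positive arrays exceeded all others, by 1.31 ± 0.23 and 1.16 ± 0.23 (limma adjusted p = 0.00209 and 0.00273). The second difference was 0.99 without rhoGFP-positive array 1 and 0.98 without nestinGFP-positive array 3, just under the minimum.

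Of the rest of the synapse, a list of 103 other genes of calcium channels, active zones, SNAREs, vesicles, adhesion and the bipolar dendrite held 94 that were measured. Against the rhoGFP-negative cells 9 of them were higher and 17 lower, beside 3.61% and 7.32% of all genes. The median was -0.20 (11 lower with the mean of each gene's probe sets). Against the nestinGFP-positive cells 11 were higher and 25 lower, beside 5.06% and 10.5% of all genes, with a median of -0.35. Elfn1, which encodes the rod's adhesion protein for the receptor mGluR6, was at 10.57, 10.46 and 10.48 against 7.45, 7.08 and 7.08 in the rhoGFP-negative arrays, a rise of 3.30 ± 0.14 (limma adjusted p = 1.26e-06). Lrit2, a relative of Lrit1, rose by 2.89 ± 0.33 and 4.24 ± 0.33, and Doc2b, a calcium sensor of release, by 1.83 ± 0.15 and 2.67 ± 0.15. The largest falls against the rhoGFP-negative cells were in the adhesion genes Nlgn1 (-2.78 ± 0.13, and -1.69 as the mean over all its probe sets) and Lrrtm1 (-2.45 ± 0.39) and in the inhibitory transporter Slc32a1 (-2.35 ± 0.26, though -0.57 and not called with the mean of its probe sets). Those against the nestinGFP-positive cells were in Lrrtm1 (-3.38 ± 0.39), the syntaxin-binding gene Stxbp6 (-3.17 ± 0.25) and the calcium sensor Syt7 (-2.96 ± 0.35, and -1.91 with the mean of its probe sets). In this list the other 14 calcium channel genes had 0 higher and 4 lower in each comparison at the limma threshold, where 9 and 12 of them, and 6138 and 8162 of all 18193 genes, had an unadjusted p below 0.05. Stxbp6 was the single one of the 94 called from the nestinGFP-positive to the rhoGFP-negative cells, at -1.55 ± 0.25 (limma adjusted p = 0.0239), a call lost when rhoGFP-positive array 2, rhoGFP-negative array 1 or 2, or nestinGFP-positive array 2 or 3 was left out (limma adjusted p = 0.0503 to 0.0972). With the replicate number as a block 1 was higher and 4 were lower there, among them Lrit2 (1.36, limma adjusted p = 0.00266) and Syt7 (-1.59, limma adjusted p = 0.000859). The share of all genes called with the block was not computed, so these counts cannot be set against it.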

How the data were processed

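The arrays were labelled from 200 ng of total RNA per pool, per the labels' protocols. The authors deposited log2 values, and the submitters' processing notes name RMA without a version. Of 45101 probe sets, 34945 carried 1 gene symbol in the platform annotation, and the one of highest mean represented each of 18193 genes. Group means were fitted to all 9 arrays with limma 3.58.1 (R 4.3.3), with empirical Bayes moderation and Benjamini-Hochberg adjustment over all genes; the script was tested on simulated data. Values were given on every array for genes called in at least 1 comparison and for Ctbp2, Bsn, Syp, Snap25 and Syt1. Of the other synapse genes, the 3 largest called differences each way were named. The genes, lists and rules were chosen with earlier results of these data known. The labels call the replicates biological. Same-numbered arrays deviated together for the rhoGFP-positive and rhoGFP-negative groups (correlations 0.62, 0.45 and 0.45). With the nestinGFP-positive group this was clear at number 1 alone, for the rhoGFP-negative (0.54, 0.15 and 0.23) and the rhoGFP-positive group (0.52, -0.01 and 0.25). Array 2 of the rhoGFP-negative and rhoGFP-positive groups correlated at 0.22 and 0.39 with nestinGFP-positive array 3. The pairing comes from the data, not from the labels. Alternatives covered normalization, probe sets, filter, block, moderation, threshold and each array left out. RefSeq promoters (GRCm38.p6) were matched by symbol with Python 3.11.15.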

Additional observations from a re-analysis of the deposited data

How the results depend on the processing

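Each count of the 42 genes was recomputed under 21 alternatives, 1 of which, the 6 arrays numbered 2 and 3 alone, was chosen after seeing the data. Shares over all genes were computed in the main fit alone, so the recounts have no background beside them. The counts of genes higher in rhoGFP-positive cells held within 1.5 times, at 15 to 23 against the rhoGFP-negative and 16 to 23 against the nestinGFP-positive cells. Leaving out each array in turn gave 17 to 18 higher and 3 to 4 lower in the first comparison and 16 to 19 higher and 6 to 6 lower in the second. With no minimum difference, 6 were lower against the rhoGFP-negative cells in place of 3. The mean of all probe sets gave 15 higher, of which 14 were among the 18. Centring the arrays on a common median moved the median of all genes against the nestinGFP-positive cells from 0.06 to 0.19. Cacna1d turned from a fall to 0.018 without _x_at and _s_at probe sets, since its other probe set then stands for it.

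With the replicate number as a block, 18 were higher and 4 lower in the first comparison, and 18 and 6 in the second. In the comparisons with the nestinGFP-positive cells the numbers paired the arrays clearly at number 1 alone. Calls that the block adds there are therefore uncertain. The calls from the nestinGFP-positive to the rhoGFP-negative cells, 2 higher and 1 lower, were the least stable. They became 4 and 2 with the replicate block, 0 and 0 with the 6 arrays compared alone or at an adjusted p under 0.01, and 1 and 0 with the arrays numbered 2 and 3 alone. Leaving out each array gave 0 to 4 higher and 0 to 1 lower. The block changed no call of a named gene of the 42 beyond Erc1, Cplx3, Lrit1 and Cacna1d, and of the other synapse genes named it added Lrit2 and Syt7 in that last comparison. Signal near the floor limits Cabp4, Slc17a6 and Syn2.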
